A study of Homo sapiens with 6 samples.

Results

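Polycomb repressive complex 2 (PRC2) is represented here by 10 genes chosen by symbol, EZH1, EZH2, EED, SUZ12, RBBP4, RBBP7, JARID2, AEBP2, MTF2 and PHF19, out of 26485 gene symbols in each table of counts. The rule used gene names and no measured value, but the members were chosen with earlier results of these data known. All 10 were present and passed the filter on low counts, which kept 13632 genes for testing. RNA was sequenced from AF22, an established human neural stem cell line that resembles the neuroepithelium and was made from reprogrammed cells. In the 3 knockdown libraries, the labels name COMMD3 and its read-through COMMD3-BMI1 as the targets and do not describe the reagent. The 3 control libraries carry shControl, a control short hairpin RNA, and their genotype is given as WT. Both groups come from this single cell line, and the labels give no culture time. Nor do they say that replicates came from separate cultures. The p-values set the group difference against the spread among replicate libraries, which may be only technical. They therefore speak only for these libraries.

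PRC2 places methyl groups on lysine 27 of histone H3, a mark that keeps developmental genes silent. A catalytic subunit, EZH2 or its paralog EZH1, works with EED, which binds the mark, with the scaffold SUZ12 and with the histone-binding proteins RBBP4 and RBBP7. Accessory subunits define variant complexes: JARID2 and AEBP2 belong to the form called PRC2.2, while the polycomb-like proteins MTF2, PHF19 and PHF1 belong to PRC2.1. In neural progenitors, PRC2 is known for restraining genes of other lineages and of later stages of development. BMI1, at the targeted locus, belongs to the partner complex PRC1.

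Counts totalled between 8574066 and 9692967 in knockdown libraries and between 7294687 and 11579849 in control libraries. For the members, a library held between 308 and 5409 counts. The targeted COMMD3 had 12.9, 11.3 and 10.5 CPM (read counts scaled to a common library size, with TMM factors) in knockdown libraries, against 31.7, 29.7 and 27.6 CPM in control libraries (log2 fold change -1.37, SE 0.10, edgeR adjusted p = 2.34e-12). COMMD3-BMI1 was listed at 0 throughout. In GENCODE v29 it shares exon bases on the same strand with COMMD3 (31.2% of the bases of COMMD3) and BMI1 (29.2% of those of BMI1), and the counting rule for shared bases is not given, so its 0 does not show that the transcript was absent, and its reads cannot be told apart from those of the single genes there. BMI1 differed by -0.07 on the log2 scale (SE 0.04, edgeR adjusted p = 0.206). Of the 8 neural stem cell markers fixed for the check of the label, all passed the filter, and their summed level, most of it from VIM and NES, was 2397 to 2475 CPM in knockdown and 2343 to 2511 CPM in control. Of these 8, SOX2 and HES1 fell (log2 fold changes -0.15 and -0.30, edgeR adjusted p = 0.00909 and 0.000184), MSI1 rose (0.13, edgeR adjusted p = 0.0310) and 5 did not pass. The astrocyte marker GFAP and the oligodendrocyte marker SOX10 were listed at 0, and the neuronal marker RBFOX3 had 1 count over the whole study. Summed neuron markers were 633.6 to 662.7 CPM in knockdown and 680.5 to 728.2 CPM in control. Summed astrocyte markers were 46.3 to 55.3 CPM in knockdown and 73.0 to 76.9 CPM in control, and summed oligodendrocyte lineage markers 143.9 to 149.8 CPM in knockdown and 169.3 to 175.7 CPM in control. Of 4 pluripotency markers, LIN28A rose to 456.8 ± 25.4 CPM in knockdown, against 303.6 ± 6.83 CPM in control (SD, n = 3 each; edgeR adjusted p = 1.20e-11), and POU5F1 fell (log2 fold change -0.37, edgeR adjusted p = 2.54e-05). Their part in the differences below was not tested. In bulk RNA, fewer cells of a type and less RNA per cell cannot be told apart.

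Promoter sequences were taken from RefSeq (build GRCh38.p14, 250 bases before to 50 after a transcript start), where all 10 members were found. They are shown because E2F factors, which drive genes of the G1/S transition, are known to act on PRC2 genes, and 24 E2F and cell cycle genes are set beside the members further on. The search used 4 words, TTTCCCGC, TTTGGCGC, TTTCGCGC and TTTGCCGC, on both strands. A word was found in a promoter of 6 of the 10 members: EZH2, SUZ12, PHF19, EZH1, AEBP2 and MTF2. Among tested genes with a listed promoter, 683 of 10130 (6.74%) hold a word, and among all listed genes 1090 of 27305 (3.99%). The promoters of EZH2 (chr7:148884242-148884541, minus strand), SUZ12 (chr17:31936757-31937056, plus strand) and PHF19 (chr9:120877139-120877438, minus strand) are printed in the direction of transcription with the word in capitals. These are the members that hold a word and were called lower in knockdown. EZH1, AEBP2 and MTF2 hold a word too and did not pass (log2 fold changes 0.06, 0.02 and -0.06). EZH2 and PHF19 each have another listed promoter, which holds no word.
EZH2: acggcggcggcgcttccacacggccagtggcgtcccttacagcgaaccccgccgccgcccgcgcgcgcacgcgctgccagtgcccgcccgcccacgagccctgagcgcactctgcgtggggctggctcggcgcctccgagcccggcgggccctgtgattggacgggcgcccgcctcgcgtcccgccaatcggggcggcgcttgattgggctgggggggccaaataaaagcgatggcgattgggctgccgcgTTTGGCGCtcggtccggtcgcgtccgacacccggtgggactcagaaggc
SUZ12: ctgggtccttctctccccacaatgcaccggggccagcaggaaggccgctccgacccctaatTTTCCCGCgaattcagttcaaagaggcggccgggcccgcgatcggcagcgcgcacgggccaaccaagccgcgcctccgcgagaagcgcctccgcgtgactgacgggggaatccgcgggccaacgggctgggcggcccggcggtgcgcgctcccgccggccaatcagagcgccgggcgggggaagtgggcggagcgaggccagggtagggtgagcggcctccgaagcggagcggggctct
PHF19: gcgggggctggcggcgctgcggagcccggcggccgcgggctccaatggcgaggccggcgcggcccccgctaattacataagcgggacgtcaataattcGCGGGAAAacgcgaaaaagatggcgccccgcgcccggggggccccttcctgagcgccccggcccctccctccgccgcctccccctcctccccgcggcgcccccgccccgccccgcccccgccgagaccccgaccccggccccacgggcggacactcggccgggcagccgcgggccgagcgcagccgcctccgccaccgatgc
The word begins at base 2 after the start in EZH2, 189 bases before it in SUZ12 and 152 bases before it, on the opposite strand, in PHF19. JARID2, the member with the largest fall, has 2 listed promoters and no such word in either. Of tested genes with a word, 24.6% were called lower and 13.6% higher in knockdown, and of those without, 18.1% and 16%. These sets were not matched for level. The share called lower varies with it, from 8.65% under 10 CPM to 26.3% at 100 to 300 CPM. A matching word is a description of the letters and not a site of binding.

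Knockdown cells had less RNA of JARID2, SUZ12, PHF19 and EZH2, by 1.19-fold to 1.38-fold, while the other 6 members did not pass the test. Of the 10 members, 4 fell and 0 rose (quasi-likelihood test of edgeR, with p adjusted by Benjamini-Hochberg over all genes tested and a threshold of 0.05). At an unadjusted p under 0.05, and by DESeq2, 0 rose as well. Over all tested genes, 33.3% were called, 15.3% higher and 18.1% lower. The share called, 4 in 10, is near the background of calls in either direction, so the count alone says nothing particular to PRC2. Among tested genes with a mean of 100 to 300 CPM, 26.3% were called lower, and among those with 30 to 100 CPM, 20%. The median log2 fold change of the members was -0.06, against 0.002 for all tested genes.

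**Figure D1:**
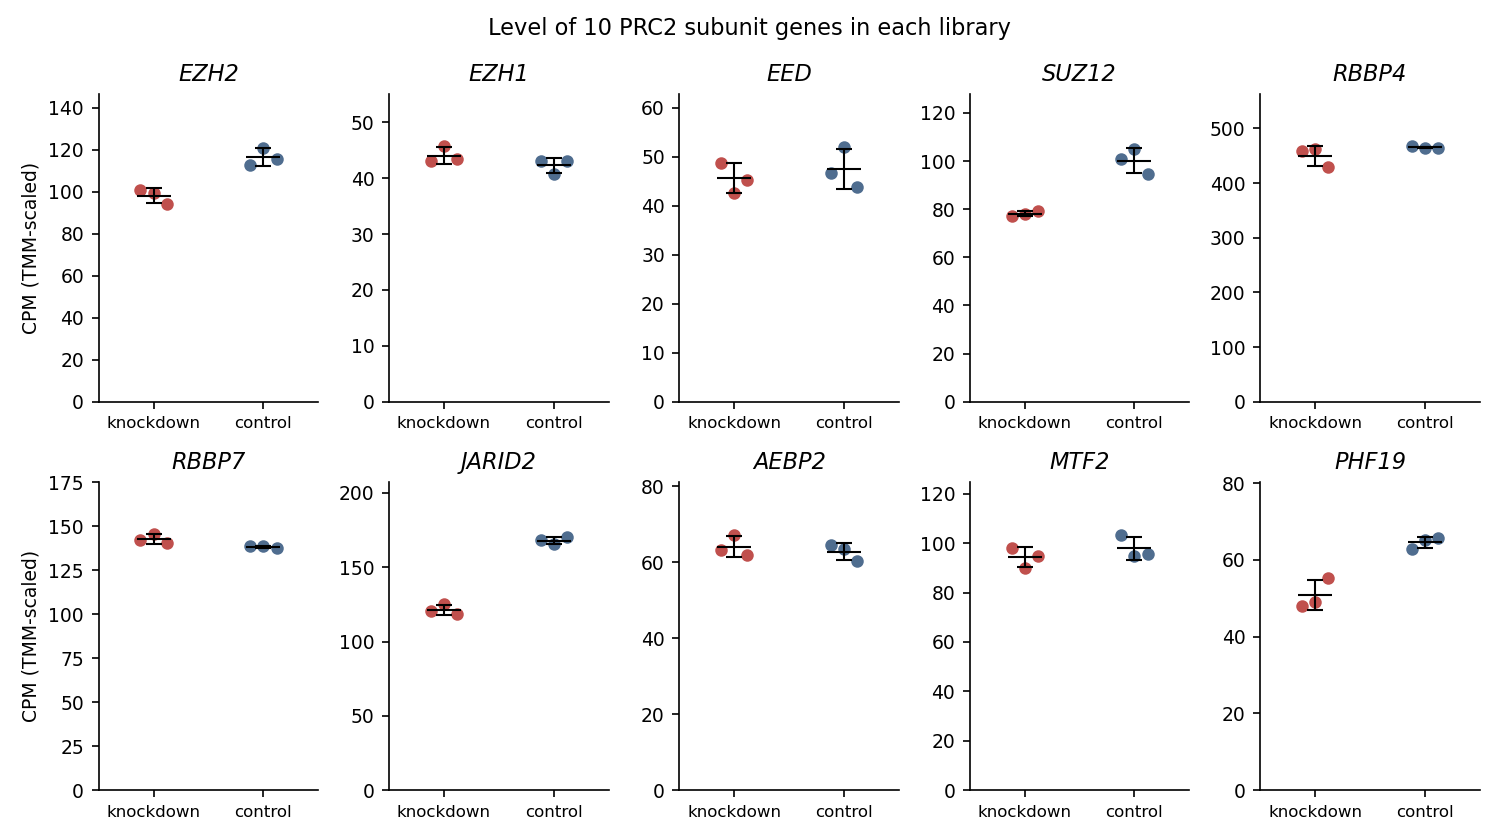
Level of each PRC2 subunit gene in CPM scaled by TMM (vertical axis, from 0), with a point for each of 3 knockdown (left) and 3 control (right) libraries, the mean as a long bar and the SD as whiskers. The knockdown points of JARID2, SUZ12, PHF19 and EZH2 lie below the control points, while those of EZH1, EED, AEBP2 and MTF2 overlap them.

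Of the catalytic subunits, EZH2 fell and EZH1 did not pass. EZH2, the main methyltransferase of dividing cells, had 100.9, 99.2 and 94.0 CPM in knockdown libraries, against 112.6, 120.9 and 115.7 CPM in control libraries. The highest knockdown library lay below the lowest control library. Its log2 fold change came to -0.25 (SE 0.05, 95% interval -0.34 to -0.15, edgeR adjusted p = 0.000131), which is 15.7% less RNA in knockdown. EZH1, the paralog with weaker catalytic activity that is known to persist in non-dividing cells, had 43.0, 45.7 and 43.4 CPM in knockdown libraries, against 43.1, 40.8 and 43.2 CPM in control libraries. These groups overlapped, with a log2 fold change of 0.06 (interval -0.07 to 0.18, edgeR adjusted p = 0.533). Within a library, the ratio of EZH2 to EZH1 in counts per kilobase of exon was 3.56, 3.29 and 3.28 in knockdown and 3.96, 4.49 and 4.07 in control. The groups did not overlap, and the mean log2 ratio was lower by 0.31 in knockdown (exact two-sided permutation test, p = 0.1, the smallest that 3 against 3 libraries allow).

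Of the other core subunits, SUZ12 fell. SUZ12, the scaffold that holds the catalytic and accessory subunits together, had 77.0, 78.1 and 79.1 CPM in knockdown libraries, against 101.0, 104.8 and 94.6 CPM in control libraries. The knockdown values lay close together and all below the control values. Its log2 fold change came to -0.36 (SE 0.05, interval -0.46 to -0.26, edgeR adjusted p = 7.36e-07). SUZ12P1, a transcribed unprocessed pseudogene of SUZ12 on the same chromosome, had 16.9 ± 1.33 CPM in knockdown and 18.1 ± 1.26 CPM in control (SD, n = 3 each; log2 fold change -0.11, edgeR adjusted p = 0.414), so reads may be split between both loci. With both rows summed, an analysis added after the data were seen, the log2 fold change was -0.32 (edgeR adjusted p = 4.02e-06).

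EED, the reader of the methylated lysine, had 42.7 to 48.8 CPM in knockdown and 43.9 to 52.0 CPM in control, and its groups overlapped (log2 fold change -0.06, interval -0.20 to 0.08, edgeR adjusted p = 0.529). EED and SUZ12, whose proteins bind each other in the core, thus had intervals that do not overlap, although their difference itself was not tested. RBBP4 had 458.4, 462.2 and 429.0 CPM in knockdown libraries, against 467.0, 463.9 and 464.9 CPM in control libraries. RBBP7 had 142.4, 145.5 and 140.2 CPM in knockdown libraries, against 138.6, 138.6 and 137.5 CPM in control libraries. In both genes the groups did not overlap, RBBP4 being lower and RBBP7 higher in knockdown, yet neither passed the test (log2 fold changes -0.05 and 0.04, edgeR adjusted p = 0.415 and 0.45). With groups that do not overlap for 6 of 10 members, the background is 44.3% of all tested genes. The ratio of RBBP4 to RBBP7 was 1.09, 1.08 and 1.04 in knockdown and 1.14, 1.14 and 1.15 in control (mean log2 ratio -0.09 in knockdown relative to control, exact two-sided permutation p = 0.1). In GENCODE v29, 21.3% of the exon bases of RBBP4 are also exon of SYNC on the other strand, and 6.57% of those of RBBP7 of TXLNG. Libraries were made with a directional kit, but the strand setting of the counting is not given in the sources used here, so reads of these overlaps may not have been told apart. SYNC had 1.77 ± 0.68 CPM in knockdown and 1.80 ± 0.95 CPM in control, and TXLNG 39.4 ± 1.69 and 39.4 ± 1.15 CPM (SD, n = 3 each).

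**Figure D2:**
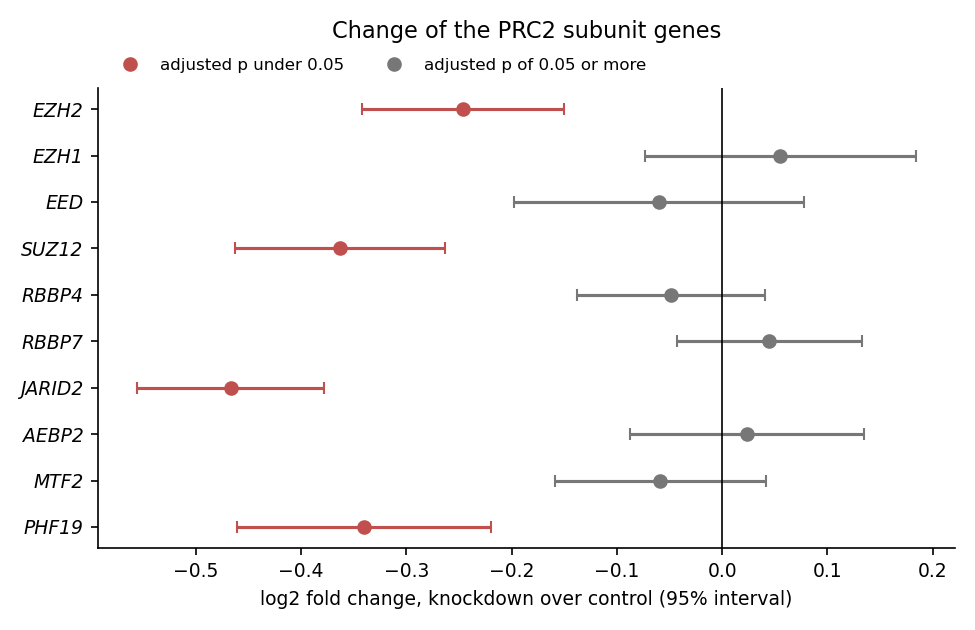
Log2 fold change of each member, knockdown over control (horizontal axis), with the 95% interval of the edgeR fit as bars and genes with an adjusted p under 0.05 in red. The intervals of JARID2, SUZ12, PHF19 and EZH2 lie wholly below 0, and JARID2 is lowest at -0.47, while the intervals of the other 6 members include 0.

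Among the accessory subunits of PRC2.2, JARID2 fell and AEBP2 did not pass. JARID2, which helps recruit the complex and stimulates its activity, had 120.5, 125.2 and 118.6 CPM in knockdown libraries, against 168.1, 165.3 and 170.0 CPM in control libraries. The gap between the groups was far wider than the spread within either of them. Its log2 fold change came to -0.47 (SE 0.04, interval -0.56 to -0.38, edgeR adjusted p = 6.84e-10), the largest among the members and rank 176 by p among all tested genes. Its size exceeded that of 90.8% of tested genes. The antisense symbol JARID2-AS1 had 1, 2 and 0 counts in knockdown libraries and 0, 1 and 0 counts in control libraries. AEBP2, a zinc finger protein that stabilises the complex, had 63.4, 67.3 and 61.8 CPM in knockdown libraries, against 64.6, 63.4 and 60.4 CPM in control libraries. Its groups overlapped (log2 fold change 0.02, interval -0.09 to 0.13, edgeR adjusted p = 0.775). The ratio of JARID2 to AEBP2 in counts per kilobase was 1.90, 1.86 and 1.91 in knockdown and 2.60, 2.60 and 2.81 in control (mean log2 ratio -0.50, exact two-sided permutation p = 0.1).

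Among the polycomb-like subunits of PRC2.1, PHF19 fell and MTF2 did not pass. PHF19 had 48.1, 49.1 and 55.2 CPM in knockdown libraries, against 62.9, 65.1 and 65.6 CPM in control libraries. Knockdown replicate 3 was the highest of its group and still below every control library. Its log2 fold change came to -0.34 (SE 0.06, interval -0.46 to -0.22, edgeR adjusted p = 3.85e-05). MTF2, its paralog, had 98.1, 90.0 and 94.8 CPM in knockdown libraries, against 103.3, 94.8 and 95.6 CPM in control libraries, and the groups overlapped (log2 fold change -0.06, interval -0.16 to 0.04, edgeR adjusted p = 0.383). Both proteins bind CpG-rich DNA and methylated lysine 36 of histone H3. Within a library, MTF2 over PHF19 was 2.35, 2.11 and 1.98 in knockdown and 1.89, 1.68 and 1.68 in control (mean log2 ratio 0.29, exact two-sided permutation p = 0.1). Between single members of the variants, the ratio of JARID2 to MTF2 was 0.86, 0.98 and 0.88 in knockdown and 1.14, 1.22 and 1.25 in control (mean log2 ratio -0.41, exact two-sided permutation p = 0.1). The means of AEBP2 and PHF19 went the other way. They were 10.9 and 10.7 CPM per kilobase in knockdown, and 10.7 and 13.6 in control. The direction thus depends on the genes picked. Adjusted over the 5 ratios computed, each p stayed at 0.1, and in each of them the groups did not overlap. The share of other gene pairs whose ratios separate in this way was not computed. Except for RBBP4 over RBBP7, each ratio pairs a member that fell with one that did not pass. Such a ratio largely repeats the fall of that member.

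**Figure D3:**
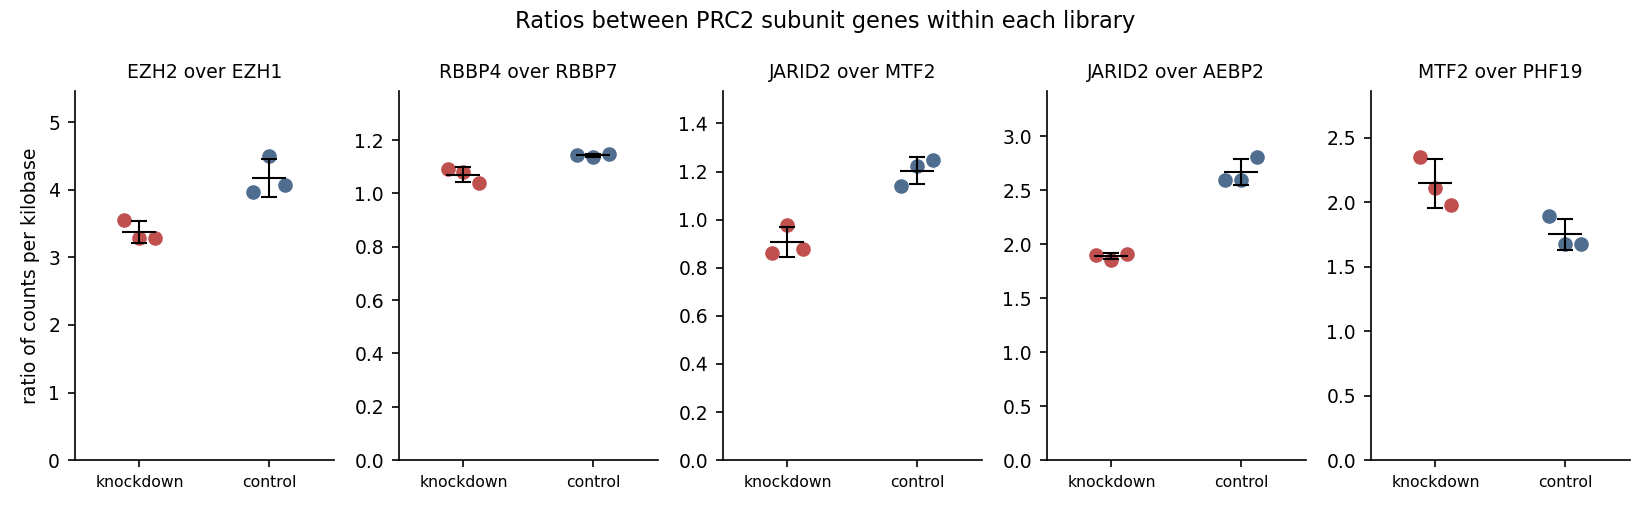
Ratio of counts per kilobase of exon between 5 pairs of PRC2 subunit genes within each library (vertical axes, from 0), with a point per library for knockdown (left) and control (right), the mean as a long bar and the SD as whiskers. EZH2 over EZH1, RBBP4 over RBBP7, JARID2 over MTF2 and JARID2 over AEBP2 are lower in knockdown, and MTF2 over PHF19 is higher, with no overlap of the points.

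Per kilobase of exon, the members spanned a range from 9.49 (EZH1) to 56.1 (RBBP4) CPM per kilobase in knockdown and from 9.12 (EZH1) to 58.0 (RBBP4) in control. RBBP4 and RBBP7, which also serve in other complexes, led in both groups, followed by EZH2 at 32.0 ± 1.18 in knockdown and 38.0 ± 1.37 in control (SD, n = 3 each). In knockdown the order below EZH2 was MTF2 (22.9), JARID2 (20.6), SUZ12 (17.4), EED (12.6), AEBP2 (10.9), PHF19 (10.7) and EZH1. In control it was JARID2 (28.5), MTF2 (23.7), SUZ12 (22.3), PHF19 (13.6), EED (13.1), AEBP2 (10.7) and EZH1. JARID2 and PHF19 thus stood lower in the order in knockdown. Neighbours whose ranges overlapped were AEBP2 and PHF19 in knockdown, and MTF2 with SUZ12 and PHF19 with EED in control. EZH2 stood above EZH1 per kilobase in all 6 libraries. Exon lengths are from GENCODE v29, whose transcripts may differ from those these cells use.

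The 4 genes that fell lie on different chromosomes in GRCh38 (GENCODE v29). On the plus strand are JARID2 (ENSG00000008083), on chromosome 6 between 15246296 and 15522040, and SUZ12 (ENSG00000178691), on chromosome 17 between 31937018 and 32001045. On the minus strand are EZH2 (ENSG00000106462), on chromosome 7 between 148807383 and 148884321, and PHF19 (ENSG00000119403), on chromosome 9 between 120855652 and 120894896. No exon base of these 4 is shared with another annotated gene. EZH1 lies on the same chromosome as SUZ12. The 7-base word TCATCCA, looked for because it was found before in the 3′ UTRs of several genes lower in these knockdown libraries, occurs in the 3′ UTR of 1 member, SUZ12, at bases 1428 to 1434 of 2042. The site of SUZ12 and that of LCOR, a subunit gene described further on that was higher in knockdown, are shown with the word in capitals.
SUZ12: gatgtgatttgTCATCCAgtattaagttc
LCOR: caggggttttgTCATCCAtttgaaccata
It was not found in the longest annotated 3′ UTR of JARID2, PHF19 or EZH2, and 11.9% of 12062 tested genes with a 3′ UTR of 50 bases or more hold it. Its part in the lower level of SUZ12 was not tested.

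By the likeness measure, the root mean square difference of log2 CPM after each gene is centred on its mean over the 6 libraries, the 5 genes whose pattern was most like that of JARID2 were ACTR1B (0.018), ZNF362 (0.0181), SEMA5B (0.0183), PRKD3 (0.0213) and CENPO (0.0226). Because they were picked for this likeness, each was lower in knockdown by construction, with log2 fold changes from -0.49 (CENPO) to -0.43 (ZNF362).

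Other subunits that join PRC2 included 2 that rose among 4 tested. Of 5 genes on this list, 4 passed the filter, 2 rose, 0 fell (0 also at an unadjusted p under 0.05 and by DESeq2), and the median log2 fold change was 0.16. Of all tested genes, 15.3% were called higher and 18.1% lower. With 4 genes tested, these counts say nothing particular to this list. LCOR and LCORL, which encode the PALI proteins of PRC2.1, rose. LCOR had 123.6, 130.9 and 127.0 CPM in knockdown libraries, against 113.9, 106.7 and 104.5 CPM in control libraries (log2 fold change 0.22, SE 0.05, edgeR adjusted p = 0.000349). LCORL had 82.2, 74.7 and 82.8 CPM in knockdown libraries, against 67.3, 68.8 and 66.3 CPM in control libraries (log2 fold change 0.25, SE 0.05, edgeR adjusted p = 0.000481), and 11% of its exon bases are also exon of NCAPG on the other strand. In both genes every knockdown library was above every control library. The files also list C10orf12, a symbol for part of the LCOR locus, at 17.0 ± 2.28 CPM in knockdown and 13.8 ± 1.83 CPM in control (SD, n = 3 each; edgeR adjusted p = 0.0612). PHF1, the third polycomb-like gene, had 78.7 ± 1.36 CPM in knockdown and 74.1 ± 2.76 CPM in control (SD, n = 3 each; log2 fold change 0.09, edgeR adjusted p = 0.169). EPOP, listed as C17orf96, had 20.1 ± 1.00 CPM in knockdown and 20.0 ± 0.88 CPM in control (edgeR adjusted p = 0.979). EZHIP, an inhibitor of the complex listed as CXorf67, had 3 counts over all libraries.

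Enzymes that remove or oppose the PRC2 mark moved in both directions. Of 7 tested, 1 rose and 2 fell, with a median log2 fold change of -0.11. Of all tested genes, 15.3% were called higher and 18.1% lower, so these small counts say nothing particular to these enzymes. KDM6B, a demethylase of lysine 27, rose to 105.9 ± 5.50 CPM in knockdown, against 92.4 ± 5.46 CPM in control (SD, n = 3 each; log2 fold change 0.20, edgeR adjusted p = 0.00299). KDM6A, the other demethylase of this pair, had 57.5 ± 2.65 CPM in knockdown and 56.1 ± 2.28 CPM in control (edgeR adjusted p = 0.598). The lysine 36 methyltransferases NSD2 and NSD3, listed as WHSC1 and WHSC1L1, fell. WHSC1 had 393.1, 401.0 and 407.9 CPM in knockdown libraries, against 445.8, 453.6 and 469.4 CPM in control libraries (log2 fold change -0.19, edgeR adjusted p = 0.00109). The log2 fold change of WHSC1L1 was -0.15 (edgeR adjusted p = 0.0149), and it did not pass by DESeq2 (adjusted p = 0.0748) or without knockdown replicate 1 (edgeR adjusted p = 0.149) or control replicate 3 (edgeR adjusted p = 0.0723). NSD1, SETD2 and ASH1L, which also methylate lysine 36, had log2 fold changes of -0.11, -0.11 and -0.01 (edgeR adjusted p = 0.0795, 0.0884 and 0.917). The PR-DUB complex, which removes ubiquitin from histone H2A, had 3 of 11 genes lower and 0 higher (1 higher at an unadjusted p under 0.05, and 0 by DESeq2). The lower ones were ASXL3, HCFC1 and MBD6, with log2 fold changes of -0.31, -0.16 and -0.17. By DESeq2, 1 of 11 was lower. Beside the background of 18.1% called lower in the main test, the small count of PR-DUB says nothing particular to it.

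**Figure D4:**
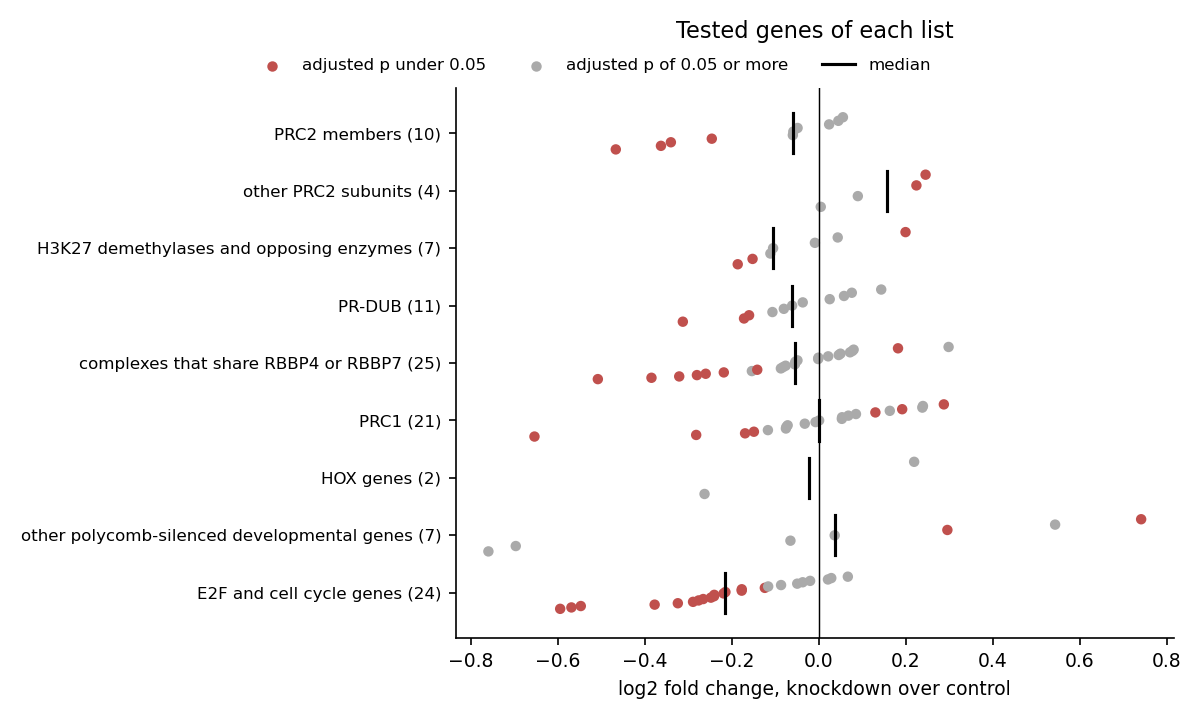
Log2 fold change, knockdown over control (horizontal axis), of the tested genes of 9 lists, with the number tested in brackets, red points for an adjusted p under 0.05 and a black bar at the median. The E2F and cell cycle genes have the lowest median, at -0.22, the other PRC2 subunits the highest, at 0.16, and the PRC2 members lie between them at -0.06.

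RBBP4 and RBBP7 also serve in NuRD, SIN3, CAF-1, NURF and MuvB complexes, and of 25 genes of these, 7 fell and 1 rose (median log2 fold change -0.05). Over all tested genes, 33.3% were called, 15.3% higher and 18.1% lower. The share called in either direction is near this background, here and in PRC1 below. The counts alone thus say nothing particular to these complexes. MBD2, a methyl-DNA-binding protein of NuRD, fell to 32.9 ± 2.21 CPM in knockdown, against 46.7 ± 2.81 CPM in control (SD, n = 3 each; log2 fold change -0.51, edgeR adjusted p = 9.88e-07). BPTF of NURF, LIN9 of MuvB and CHAF1A of CAF-1 fell by 0.32, 0.38 and 0.22 on the log2 scale. In PRC1, 4 of 21 tested genes fell and 3 rose (median 0.001), with the smallest p for L3MBTL2, at 31.4 ± 1.97 CPM in knockdown against 49.2 ± 4.54 CPM in control (SD, n = 3 each; log2 fold change -0.65, edgeR adjusted p = 2.50e-08). With the dependence on gene length and GC content taken out of each library, 6 PRC1 genes were called higher, and 5 with scaling by library size.

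Genes that PRC2 is known to silence were mostly too low to test. Of 39 HOX genes, 32 were listed at 0 in all 6 libraries and 2 were tested, HOXB2 and HOXB3. HOXB2 had 23.9, 24.9 and 22.2 CPM in knockdown libraries, against 19.5, 21.4 and 20.2 CPM in control libraries, (log2 fold change 0.22). It did not pass (edgeR adjusted p = 0.0571, unadjusted p = 0.0198), nor did it by DESeq2, although its groups did not overlap. HOXB3 had 4.54 ± 1.25 CPM in knockdown and 5.58 ± 0.52 CPM in control (SD, n = 3 each; edgeR adjusted p = 0.303). Of 31 other developmental genes known as polycomb targets, 16 were listed at 0 throughout and 7 were tested, of which 2 rose and 0 fell (1 lower at an unadjusted p under 0.05, and 0 by DESeq2). The background of genes called higher was 15.3%. CDKN2A, which encodes cell cycle inhibitors, had 6.28, 3.72 and 5.04 CPM in knockdown libraries, against 3.02, 3.54 and 2.38 CPM in control libraries (log2 fold change 0.74, edgeR adjusted p = 0.00789), and did not pass without knockdown replicate 1 (edgeR adjusted p = 0.083).

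Genes of the cell cycle, with which EZH2 expression is known to vary, were lower in the same libraries. Of 24 tested E2F and cell cycle genes, 16 fell and 0 rose (0 also at an unadjusted p under 0.05 and by DESeq2), with a median log2 fold change of -0.22. The background of genes called lower was 18.1%. This list was chosen with earlier results of these data known. Their summed level was 3898 to 4091 CPM in knockdown and 4649 to 4859 CPM in control. UHRF1, which maintains DNA methylation, fell to 103.1 ± 3.10 CPM in knockdown, against 150.6 ± 1.10 CPM in control (SD, n = 3 each; edgeR adjusted p = 2.67e-11). MKI67, a marker of proliferating cells, had 239.9, 287.2 and 279.8 CPM in knockdown libraries, against 370.0, 391.3 and 438.3 CPM in control libraries. CENPE and TOP2A fell by 0.59 and 0.38 on the log2 scale. The 8 that did not pass were E2F2, MCM7, CDT1, CCNE1, CCNE2, RRM2, CCNB1 and AURKA, named here after their values were seen, with log2 fold changes between -0.12 (E2F2) and 0.07 (CCNE1). The fall of EZH2, SUZ12, JARID2 and PHF19 thus accompanied a lower summed level of cell cycle genes, and the part of the cell cycle in it was not tested.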

How the data were processed

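Total RNA of 6 AF22 samples was sequenced with a directional kit, per the labels' protocols. Trim Galore 0.6.6, STAR 2.7.10a, bedtools and build hg38 are named per the submitters' processing notes, and no source used here gives the counting step, strand setting or annotation. Whole-number read counts per gene symbol, not normalised, were deposited by the authors for 26485 symbols. Of these, 23899 (90.2%) matched GENCODE v29 by name, which gave coordinates, exon lengths and 3′ UTRs. RefSeq gave promoters.

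Counts were filtered with filterByExpr, scaled by TMM (factors 0.9797 to 1.015) and tested with the quasi-likelihood fit of edgeR 4.0.16 in R 4.3.3, two-sided, with Benjamini-Hochberg adjustment over 13632 genes. CPM values are on that scaling. DESeq2 1.42.0 and limma-voom (limma 3.58.1) were among 16 alternatives. In simulated data of 13534 genes with changes of known size in this comparison, 52% of 1.2-fold changes, 91.8% of 1.5-fold changes and 97.9% of 2-fold changes were recovered, and 4 of 170 calls were false. Only 200 genes were changed there, and all genes shared a common dispersion, while 33.3% of genes were called in the real data. These rates therefore need not hold for the real comparison. Ratios between members were compared by an exact two-sided permutation test. Any pair of replicates differed beyond sampling noise (chi-square 1.23 to 1.994 per degree of freedom), so each library counted once. A count of 3, the floor, is 0.259 to 0.4203 CPM.

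The members and the gene lists were chosen with earlier results of these data known. Named genes are the members, the tested genes of the lists of other PRC2 subunits and of opposing enzymes, the target check, up to 4 called genes with the smallest adjusted p of each other list (the best expressed where none was called) and the 5 genes most like the member with the smallest p. Further genes named are marked as such or are cell type markers, overlapping loci or genes at the floor. The result for 1 further gene of the polycomb-silenced list is not reported here.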

Additional observations from a re-analysis of the deposited data

How the results depend on the processing

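Over 16 alternatives, 4 members were lower and 0 higher each time, and no member changed its side of the threshold. The log2 fold change ranged from -0.49 to -0.43 for JARID2, from -0.39 to -0.33 for SUZ12 with its own row alone (-0.32 with SUZ12P1 added), from -0.40 to -0.30 for PHF19 and from -0.29 to -0.21 for EZH2, with a largest adjusted p of 0.00287 (EZH2). Members near 0 turned sign: with the length and GC trend removed, RBBP4 was at 0.0029 and RBBP7 at -0.0041, and leaving out single replicates gave -0.11 to 0.0084 for EED and -0.00998 to 0.053 for AEBP2. Among opposing enzymes and other subunits, C17orf96 ranged from -0.028 to 0.049 and ASH1L from -0.074 to 0.041 in the same way, and ASH1L was at 0.00100 with upper-quartile scaling, 0.011 with library size scaling and 0.064 with the trend removed. The cause was not tested. Under the other scalings, the median log2 fold change of all genes was at most 0.022 (library size scaling), against 0.002 in the main test.

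Over all genes, 1170 were higher by DESeq2 and 1224 at an adjusted p under 0.01, where fewer pass by construction. Opposing enzymes called lower were 1 by DESeq2, 4 with the replicate block, 1 at the stricter threshold and 1 to 4 without single replicates. PR-DUB genes called higher were 1 with upper-quartile scaling, 1 with library size scaling, 1 with the block and 0 to 1 without single replicates, and those called lower were 1 by DESeq2 and 1 to 4 without single replicates. Genes of complexes sharing RBBP4 or RBBP7 called higher were 1 to 2 without single replicates. PRC1 genes called higher were 5 with library size scaling and 6 with the trend removed, and those called lower 2 by DESeq2. HOX genes called higher were 1 with upper-quartile scaling, library size scaling and the block alike, and 0 to 1 without single replicates. Other polycomb-silenced genes called higher were 1 with no filter, by DESeq2, by limma-voom, with the trend removed and at the stricter threshold alike, and 0 to 3 without single replicates.

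Same-numbered libraries correlated at 0.0792, 0.00548 and 0.0713 in their deviations from the group means, so replicate numbers were not taken to pair samples, and not every library correlated best with its own number. With the replicate block, 2458 genes were higher and 2790 lower, and the members' counts stayed at 4 and 0. Without single replicates, the ratio of MTF2 to PHF19 reached p = 0.2 in the exact permutation test in 3 of 6 settings. The 95% intervals of the 6 members that did not pass reached down to -0.20 (EED) and up to 0.18 (EZH1) on the log2 scale, so differences within those intervals remain possible.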
